A study of Mus musculus with 374 samples.

Results

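Meis1, Hoxa9, Hlf, Erg, Mycn, Myc and Myb are 7 transcription factor genes known from blood stem and progenitor cells. They were taken by name from the count table, which held 19829 mouse genes. Their unique molecular identifiers (UMIs, the random tags that mark single mRNA molecules) were counted in 374 single-cell wells of 1 plate, all from 1 C57BL/6 female mouse aged between 10 and 13 weeks, for which no transgene or treatment is stated.

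The wells held 5 populations, separated on an Aria sorter and read by a modified CEL-seq2 protocol, which tags the 3' ends of transcripts. Bone marrow gave 95 wells of Lin- Kit+ Sca1+ progenitor/stem cells (LSK), 44 of B220+ FSC-Alow B lymphocytes, 96 of Ter119+ CD44+ FSC-Amid/high erythroblasts and 96 of Mac1+ Gr1+ granulocytes. Thymus gave 43 wells of CD3+ FSC-Alow T cells. With 1 mouse, each population was 1 sample, so there is no test between populations and every interval below covers counting error only.

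Blood stem cells keep themselves and also give rise to all blood lineages, and a small set of transcription factors is known to hold both tasks in balance. Meis1 and Hoxa9 are homeodomain proteins that bind DNA together and are known for their part in leukaemia, Hlf is a PAR leucine zipper factor of long-term stem cells, and Erg is an ETS factor needed for stem cell maintenance. Myc and Mycn are basic helix-loop-helix factors that drive growth and division with their partner Max, and Myb is needed for the expansion of progenitors and of early lymphoid cells.

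The LSK wells held 834812 UMIs on mouse genes with a median of 7959 per well, and the medians of the other populations ran from 3028.5 in B lymphocytes to 6113.5 in erythroblasts. No well barcode was shared among the 374 wells. The LSK surface marker genes Kit, Cd34, Flt3 and Adgrg1 summed to 2722 UMIs per 1000000 mouse-gene UMIs (CPM) in LSK and to between 108 and 159.7 CPM in the other populations, and the marker genes of each other population were likewise highest in the wells so labelled. By whole-transcriptome correlation, 7 wells lay nearest to another population than their label. Those wells held 1 Myc UMI (a B lymphocyte well) and 2 Hlf UMIs (an LSK well) and no other UMI of the 7 genes. Without them, the members 4-fold higher in LSK numbered 3, 4, 7 and 7 against B, T, granulocytes and erythroblasts, the same numbers as with them. Of all genes tested without these wells, 2.74%, 3.21%, 21.0% and 30.3% were 4-fold higher in LSK.

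All 7 genes are protein coding in GENCODE M21 on the GRCm38 build, which may not be the build used for counting. Meis1 lies at chr11:18879817-19018985, Hoxa9 at chr6:52223100-52231089, Hlf at chr11:90336536-90390895, Erg at chr16:95359169-95586593, Mycn at chr12:12936093-12941914 and Myb at chr10:21124935-21160984, all on the minus strand, while Myc lies at chr15:61985391-61990374 on the plus strand. Exons of Meis1 overlap those of Gm37818 on the same strand and Gm16140 on the other, so its count is uncertain. Gm37818 had 53 UMIs in LSK wells and at most 2 in any other population. Exons of Hoxa9 overlap Mir196b and those of Myb overlap the antisense gene Gm26577, which had 2 UMIs in all.

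The promoters of Meis1, Hlf and Myb are shown as examples, being the 3 of the members' 8 windows richest in G and C. No link between a promoter's letters and a gene's level was tested. Each window runs from 250 bases before to 50 bases after the RefSeq start (GRCm38.p6), 5' to 3', with capitals marking the ETS core and the CCAAT box.
Meis1, chr11:19018920-19019219, - strand: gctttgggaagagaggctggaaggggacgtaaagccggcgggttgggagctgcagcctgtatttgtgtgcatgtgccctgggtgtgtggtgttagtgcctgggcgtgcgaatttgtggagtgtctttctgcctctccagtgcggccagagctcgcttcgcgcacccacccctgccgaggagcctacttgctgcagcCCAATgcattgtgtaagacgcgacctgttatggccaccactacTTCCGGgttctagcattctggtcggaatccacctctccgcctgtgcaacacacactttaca
Hlf, chr11:90390868-90391167, - strand: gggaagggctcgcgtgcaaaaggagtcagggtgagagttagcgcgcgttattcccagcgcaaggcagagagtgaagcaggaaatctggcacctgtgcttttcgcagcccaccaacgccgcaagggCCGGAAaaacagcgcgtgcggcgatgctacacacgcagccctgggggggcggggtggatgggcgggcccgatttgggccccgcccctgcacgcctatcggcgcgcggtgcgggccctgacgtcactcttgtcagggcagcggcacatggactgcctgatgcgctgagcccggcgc
Myb, chr10:21160935-21161234, - strand: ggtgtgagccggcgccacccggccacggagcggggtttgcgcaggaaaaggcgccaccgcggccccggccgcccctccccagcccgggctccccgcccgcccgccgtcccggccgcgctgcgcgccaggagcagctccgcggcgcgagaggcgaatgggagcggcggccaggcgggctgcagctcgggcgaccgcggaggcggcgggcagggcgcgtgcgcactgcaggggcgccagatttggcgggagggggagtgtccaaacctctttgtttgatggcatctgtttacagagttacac

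The windows were searched on both strands for the E-box of Myc and Max (CACGTG), the ETS core (CCGGAA), the Meis core (TGACAG), the GATA core (AGATAA), the CCAAT box (CCAAT), the TATA box (TATAAA), the Myb core (CAACNG) and the PAR leucine zipper core (TTACNTAA), whose letters do not contain one another. RefSeq windows were held for 6 of the 7 members, in 8 windows of which 3 belong to Erg. The ETS core began 11 bases before the Meis1 start and 125 bases before the Hlf start, and 14.9% of all 32851 windows hold it. The CCAAT box of Meis1 began 54 bases before the start, and 37.4% of all windows hold one. The ETS core was in none of the windows of Hoxa9, Erg, Mycn and Myb. Hoxa9 had a Myb core (35.0% of all windows) and Mycn a Meis core (19.2%). The first Erg window had a CCAAT box, the second a TATA box (13.6%), and the third 2 Meis cores, a GATA core (11.2%) and 3 CCAAT boxes. None of the 8 windows had the E-box, found in 7.15% of all windows, or the PAR leucine zipper core, found in 2.32%. The Myb window was 75% G and C with 40 CpG, the Hlf window 67.3% with 30, and the Hoxa9 window 49.7% with 4, beside medians of 52.7% and 7 over all windows.

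The levels of 6 of the 7 genes were highest in LSK cells, and Myb was the exception, being higher in B lymphocytes on the CPM scale but not when scaled to spike-in RNA. LSK wells held 37.2% of all mouse-gene UMIs but 97.8% of those of Meis1, 96.4% of Mycn, 92.7% of Hoxa9, 92.5% of Hlf, 88.1% of Erg and 87.3% of Myc. For Myb the share was 75.4%.

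**Figure D1:**
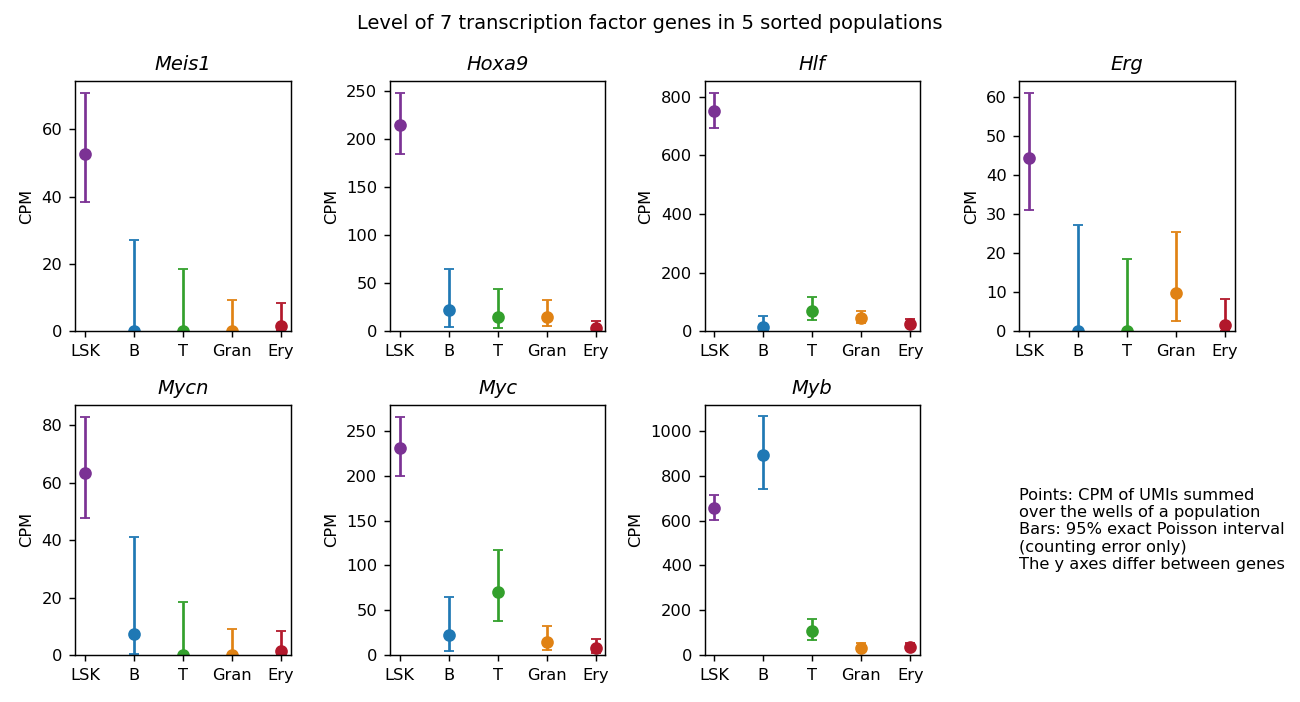
CPM of the 7 genes (y axis, from 0, its range set per gene) in the 5 sorted populations (x axis: LSK; B, B lymphocytes; T, thymic T cells; Gran, granulocytes; Ery, erythroblasts), with 95% exact Poisson intervals for counting error. LSK is the highest point in 6 panels, while in the Myb panel B lymphocytes stand at 891 CPM above LSK at 656 CPM, an order that turns round when scaled to spike-in RNA.

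Among the factors of stem cells, Meis1 had 44 UMIs in LSK wells, with 0 in the lowest and the median well and 3 in the highest. Its level was 52.7 CPM (95% exact Poisson interval 38.3-70.8). It had no UMI in B, T or granulocyte wells and 1 in erythroblast wells. By the 95% exact binomial interval, a count of 0 allows a share of wells with a UMI of up to 8.04% in B lymphocytes, 8.22% in T cells and 3.77% in granulocytes. Meis1 encodes the TALE partner of Hox proteins. Set against a floor of 3 UMIs per population it was at least 2.39-fold higher in LSK than in B lymphocytes, at least 3.52-fold higher than in T cells and at least 7.09-fold higher than in granulocytes. These take the LSK count as exact, and the lower limits of the 95% conditional binomial intervals, which do not, were 1.86, 2.74 and 5.53. Against the single erythroblast UMI the ratio was 35.1 (5.99-1419). The floored values depend on the number of wells: the log2 value against B lymphocytes, 1.25 in all wells, was 0.20 without plate row A and 0.31 without row B, and that against T cells, 1.82, was 0.68 without row O and 0.94 without row P.

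Hoxa9 had 179 UMIs in LSK wells, from 0 through a median of 1 to 13 in well M14, and a level of 214 CPM (184-248). The other populations held 3 UMIs in B, 3 in T, 6 in granulocyte and 2 in erythroblast wells. No well outside LSK held more than 1 UMI of this posterior Hox gene. The level in LSK was 9.71-fold that in B lymphocytes (95% conditional binomial interval 3.27-47.5), 14.3-fold that in T cells (4.82-70.1), 14.4-fold that in granulocytes (6.50-39.8) and 71.5-fold that in erythroblasts (19.5-595). The intervals of the 4 low levels overlapped, which does not show these levels to be equal.

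Hlf had 628 UMIs in LSK wells, with 0 in the lowest, 5 in the median and 20 in the highest well, and stood at 752 CPM (695-813). The other levels were 14.7 CPM in B lymphocytes (1.78-53.2), 69.9 in T cells (38.2-117), 44.6 in granulocytes (26.4-70.5) and 25.5 in erythroblasts (14.9-40.8). In LSK, 89 of 95 wells had an Hlf UMI, and outside it no well had more than 2. LSK exceeded B lymphocytes 51.1-fold (14.1-423), T cells 10.8-fold (6.37-19.8), granulocytes 16.9-fold (10.6-28.6) and erythroblasts 29.5-fold (18.3-51.0). T cells came second in this order. Their interval overlapped those of B lymphocytes, granulocytes and, only between 38.2 and 40.8, erythroblasts. Overlap of separate intervals does not show levels to be equal, and no ratio between these populations was computed.

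Erg had 37 UMIs in LSK wells, 0 in the lowest and median well and 3 in the highest, for 44.3 CPM (31.2-61.1). Granulocytes held 4 UMIs in 3 wells, erythroblasts 1, and B and T wells 0. The ETS factor was 4.47-fold higher in LSK than in granulocytes (1.61-17.3). Against the floor it was at least 2.01-fold higher than in B lymphocytes and at least 2.96-fold higher than in T cells, with lower interval limits of 1.55 and 2.29. Without plate row A the floored B lymphocyte value fell to a log2 ratio of -0.05 and without row B to 0.06, which no longer show LSK to be higher, and the T cell value was 0.43 without row O and 0.69 without row P. Of the 7 genes it had the ratio to granulocytes closest to the median of all genes.

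Of the growth factors, Mycn had 53 UMIs in LSK wells, from 0 through a median of 0 to 5, and 63.5 CPM (47.6-83.0). It had 1 UMI in B lymphocytes, 1 in erythroblasts and 0 in T cells and granulocytes. Against the floor, LSK stood at least 4.24-fold above T cells and at least 8.54-fold above granulocytes for this gene, with lower interval limits of 3.33 and 6.71, the first of them under the 4-fold used for calls. The ratio to the 1 UMI of B lymphocytes was 8.62 (1.48-347).

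Myc had 193 UMIs in LSK wells, 0 in the lowest, 2 in the median and 9 in the highest well, and 231 CPM (199.7-266). T cells came next with 14 UMIs in 9 wells and 69.9 CPM (38.2-117), of which no well held more than 3. The other populations had 3 UMIs in B, 6 in granulocyte and 5 in erythroblast wells, and no well there held more than 1. Myc was 3.31-fold higher in LSK than in T cells (1.93-6.17), 10.5-fold higher than in B lymphocytes (3.53-51.2), 15.5-fold higher than in granulocytes (7.01-42.9) and 30.8-fold higher than in erythroblasts (13.0-96.0). The T cell interval overlapped that of B lymphocytes, which does not show equal levels, and lay above those of granulocytes and erythroblasts.

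Myb had 548 UMIs in LSK wells, 0 in the lowest, 5 in the median and 21 in the highest well, and 656 CPM (603-714). B lymphocytes had 121 UMIs, with 0, 2 and 13 in the lowest, median and highest well, and 891 CPM (739-1065). The 2 intervals did not overlap, and the log2 ratio of LSK over B lymphocytes was -0.44 (-0.73 to -0.14). Scaled to the ERCC spike-in RNA it was 0.88, with LSK the higher, and under every other scaling or choice of wells it stayed below 0. Myb, which early B cell precursors are known to need, had a UMI in 33 of 44 B wells and 90 of 95 LSK wells as deposited. Thinned to 2000 UMIs per well, the shares were 72.7% in B lymphocytes and 67.2% in LSK. T cells stood at 105 CPM (64.9-160.2), granulocytes at 32.2 (17.2-55.1) and erythroblasts at 36.0 (23.1-53.6). LSK was 6.26-fold above T cells (4.06-10.2), 20.4-fold above granulocytes (11.8-38.5) and 18.2-fold above erythroblasts (12.1-28.7).

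Calls were made where the log2 ratio of CPM was at least 2, that is 4-fold, with sums under 3 UMIs set to 3, among genes with at least 20 UMIs in both populations together. All 7 members passed the minimum of 20 UMIs in each comparison. The floor, however, kept some ratios under 4-fold whatever the count in the other population. At their LSK counts, Meis1, Erg and Mycn could reach at most 2.39-, 2.01- and 2.87-fold against B lymphocytes. Meis1 and Erg could reach at most 3.52- and 2.96-fold against T cells. These genes could not be called there. Against B lymphocytes 3 of 7 were called higher in LSK (Hoxa9, Hlf and Myc), beside 2.74% of the 7297 genes tested. Against T cells 4 of 7 were called (Hoxa9, Hlf, Mycn and Myb), beside 3.21% of 7565. The floor also kept other genes with few UMIs from being called, so these 2 percentages depend on the minimum. At a minimum of 50 UMIs, 3 and 4 members were called, beside 5.27% of 3793 genes and 5.99% of 4060. All 7 were called against granulocytes, where 19.6% of 7826 genes were, and all 7 against erythroblasts, where 30% of 8076 were. None was called lower. Calls near the threshold changed with single plate rows, in both directions. Mycn against T cells had a floored log2 ratio of 1.90 without row N, 0.95 without row O and 1.21 without row P, and Erg against granulocytes had 1.80, 1.84 and 1.99 without rows G, H and K. Myc against T cells, 1.73 in all wells, reached 2.40 without row O and was then called. The median log2 ratio of the members with floored sums was 1.52, 2.08, 3.85 and 4.19 in that order, and that of all genes tested was 0.32, 0.26, 0.95 and 0.98.

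**Figure D2:**
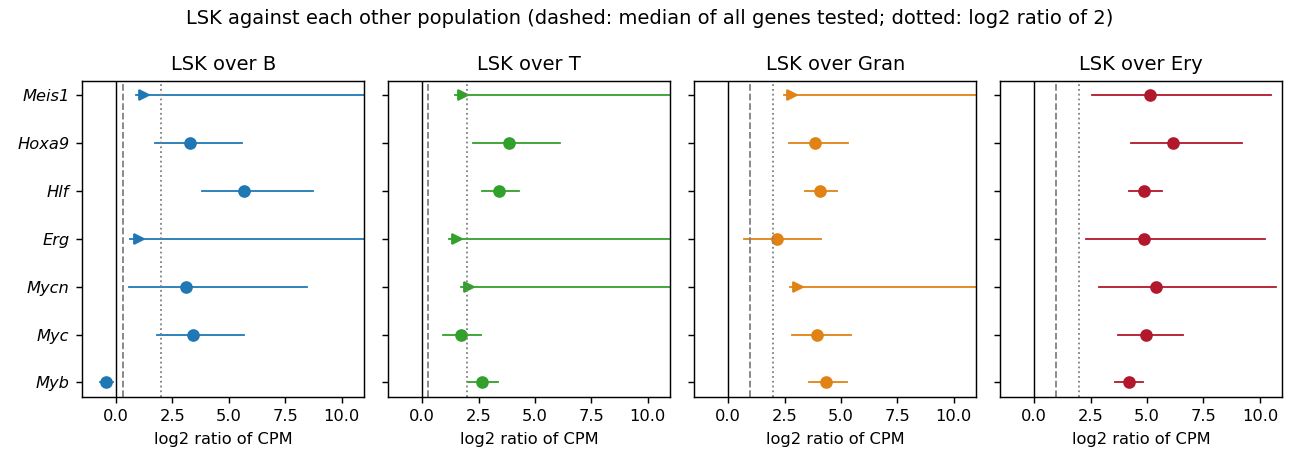
Log2 ratio of CPM, LSK over each other population (x axis), for the 7 genes (rows), with 95% conditional binomial intervals cut at the right edge; arrowheads mark genes with no UMI in the other population, drawn at the ratio to the floor of 3 UMIs, with a line from the lower interval limit. All 7 genes lie right of the dashed median of all genes in 3 panels, and against B lymphocytes Myb alone lies left of 0, at -0.44, and at 0.88 when scaled to spike-in RNA.

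The background moved with the scaling. Over all genes, 1536 were called higher in LSK and 441 lower against granulocytes, and 354 higher and 794 lower with scran size factors, and the members called numbered 7 and 5. Against erythroblasts 2423 were higher and 532 lower, or 975 and 978 with scran, with 7 members called in both. Against B lymphocytes 200 were higher and 181 lower, 107 and 233 with scran, and 2351 and 72 when scaled to the ERCC spike-in RNA, and the members called numbered 3, 3 and 6. Against T cells 243 were higher and 224 lower, 188 and 250 with scran, and 1239 and 120 on the spike-in scale, and the members called numbered 4, 3 and 7.

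A few UMIs of the LSK surface marker genes were present in every other population, and the members were set beside them. The summed Kit, Cd34, Flt3 and Adgrg1 UMIs of B, T, granulocyte and erythroblast wells were 0.836%, 1.41%, 2.02% and 3.17% of those in LSK wells. For Hlf, Hoxa9, Mycn and Meis1 the interval of the ratio to that percentage included 1 in every population. For Meis1 and Mycn, on 44 and 53 LSK UMIs, this says little, since their intervals reached 11.5 and 14.7 in B lymphocytes. Those with an interval above 1 were Myb in B lymphocytes, 26.4 times the markers' percentage (16.0-45.7), Myc in T cells, 5.15 times (2.49-10.1), Myb in T cells, 2.72 times (1.48-4.91), and Erg in granulocytes, 5.34 times (1.33-15.8) on 4 UMIs. The part of RNA from other wells in the low counts was not tested.

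Shares of wells with a UMI followed depth as well as level. In LSK wells as deposited, 33.7% had Meis1, 31.6% Erg, 34.7% Mycn, 70.5% Myc, 72.6% Hoxa9, 93.7% Hlf and 94.7% Myb. Thinned to 2000 UMIs these became 10.2%, 9.70%, 12.2%, 33.6%, 33.5%, 68.8% and 67.2%, with no LSK well left out. In erythroblasts, at a median depth of 6113.5, the thinned shares were 0.285%, 0.591%, 0.382%, 0.992%, 0.573%, 5.56% and 6.67%, with 1 well left out.

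An LSK well held between 1 and 6 of the 7 genes with a median of 4, and 89 of 95 wells held at least 3. B lymphocyte wells held a median of 1 and at most 2, and 33 of the 44 held Myb. T wells held a median of 1 and at most 4, and granulocyte and erythroblast wells a median of 0 and at most 3. At 2000 UMIs the mean number was 2.35 in LSK, 0.876 in B lymphocytes, 0.422 in T cells, 0.230 in granulocytes and 0.150 in erythroblasts, leaving out 0, 11, 1, 10 and 1 shallower wells.

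**Figure D3:**
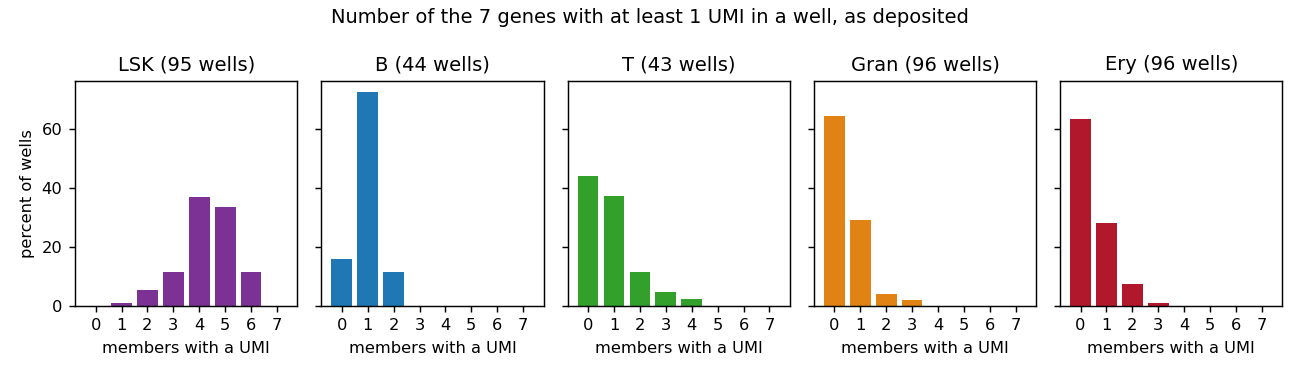
Percent of wells (y axis, from 0) by the number of the 7 genes with at least 1 UMI (x axis), one panel per sorted population, as deposited and so at unequal depth. LSK wells peak at 4 and reach 6, B lymphocyte wells peak at 1, and granulocyte and erythroblast wells peak at 0.

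Within LSK, the genes varied over the 4 plate rows the cells filled. Mycn ranged from 25.1 CPM in row K to 86.1 in row N, a ratio of 3.43, on 5 and 18 UMIs. Erg ranged from 27.0 in row M to 60.2 in row K, and Hoxa9 from 134 in row N to 261 in row K. Hlf stood at 848, 897, 693 and 583 CPM in rows K to N. Meis1, Myc and Myb varied least, by ratios of 1.33, 1.35 and 1.31. The dispersion of counts over LSK wells given depth, which is 1 for pure counting noise, was 5.68 for Hlf, 2.50 for Myb, 2.04 for Hoxa9, 1.75 for Mycn, 1.59 for Myc, 1.26 for Erg and 1.23 for Meis1.

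Across the 95 LSK wells, Myb and Myc UMIs rose with the well's depth and the others did so little. Pearson's r with total UMIs was 0.49 for Myb and 0.43 for Myc (Spearman's rho 0.57 and 0.46), 0.25 for Hoxa9 (0.15), 0.13 for Mycn (0.04), 0.08 for Meis1 (0.16), -0.02 for Hlf (-0.03) and -0.07 for Erg (-0.05). These are descriptions over cells of 1 sample, and each total includes the gene itself.

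The index sort recorded each cell's surface signal, by which the LSK wells were parted at the median. Sca-1 is a stem cell antigen and c-Kit the stem cell factor receptor. Hlf was higher in the wells with more Sca-1, at 911 against 610 CPM, a ratio of 1.49 (1.27-1.76), and Myb was lower, at 576 against 728, a ratio of 0.79 (0.66-0.94). Hoxa9 was lower in wells with more c-Kit, at 152 against 276 CPM, a ratio of 0.55 (0.40-0.75). Hlf was also lower in the wells with larger forward scatter, a measure of size, at 0.75 (0.64-0.88).

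Side scatter, a measure of granularity, was added after the values were seen. Wells above its median had Hlf at 579 against 962 CPM, a ratio of 0.60 (0.51-0.71), Hoxa9 at 0.69 (0.50-0.93) and Erg at 0.45 (0.21-0.92). Of the 28 pairs of a gene and an index value, 1 interval lay above a ratio of 1, 6 below it and the others spanned it. Meis1, Mycn and Myc were in none of the 7. These intervals treat UMIs of one well as independent, though the dispersion over wells was 5.68 for Hlf, 2.50 for Myb and 2.04 for Hoxa9. Depth differed as well, with a median of 9021 UMIs in wells above the side scatter median and 6905.5 in the rest. For forward scatter the medians were 8779 and 7247. The part of depth was not tested.

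Pairs of members were counted together in LSK wells. The number of wells with both genes of a pair was set against the product of their shares over the 95 wells, and 17 of 21 pairs came within 10% of it. For the 11 pairs with Hlf or Myb, which were in 89 and 90 of the 95 wells, a ratio near 1 is set by those shares. Of the 10 other pairs 6 came within 10% and 4 lay above 1. Hlf and Myb were found together in 84 wells, where the product gives 84.3. Hoxa9 and Hlf shared 68 wells against 64.6, and Meis1 and Hoxa9, whose proteins bind DNA as partners, shared 26 against 23.2. Meis1 and Erg had the highest ratio, with 12 wells against 10.1.

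Erg and Mycn had the lowest ratio, with 5 shared wells against 10.4, or 0.48. The ratio was 0.40 after thinning to 2000 UMIs (0.45 wells against 1.13) and 0.48 in the wells kept by outlier detection. It was 0.43 in the 47 deeper wells (2 against 4.70) and 0.53 in the 48 shallower (3 against 5.67). These are cuts of the same wells for the pair picked as the lowest of 21, so they give no separate support. Plate row K had Erg in 9 wells and Mycn in 4, and the part of plate row was not tested. The ratio as deposited rests on 30 wells with Erg and 33 with Mycn. Over all 21 pairs, 10 lay above 1 as deposited and 13 after thinning. Myc and Mycn, paralogs that share a partner, were found together in 22 wells, Myc without Mycn in 45, Mycn without Myc in 11, and neither in 17.

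**Figure D4:**
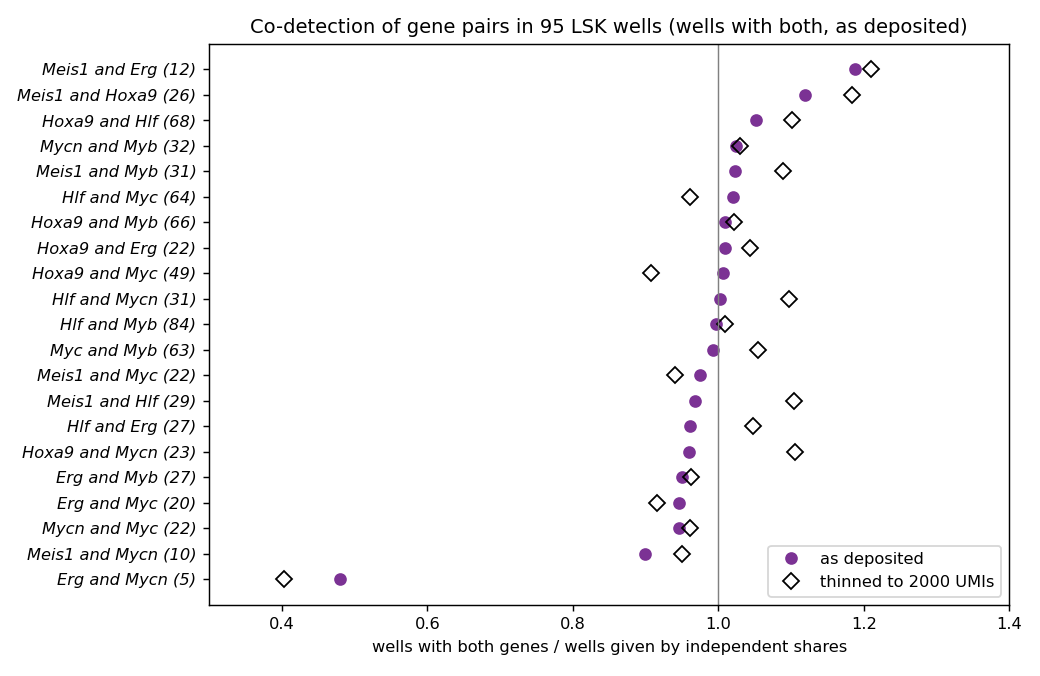
Wells with both genes divided by the number that independent shares give (x axis), for the 21 pairs of the 7 genes (rows, with the number of LSK wells holding both), as deposited (filled circles) and thinned to 2000 UMIs (open diamonds). As deposited, pairs with Hlf or Myb lie near 1 because those genes were in nearly every well. Thinned, Hlf and Myb were expected in 65.4 and 63.9 of 95 wells. Erg and Mycn lie apart at 0.48 as deposited and 0.40 thinned.

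LSK cells are a mixture of long-term stem cells and progenitors primed for a lineage, so 6 lists of state genes were compared between LSK wells with and without a UMI of 5 members. Hlf and Myb were left out, being found in nearly every well. Ratios are of CPM summed over wells. The 14 replication and mitosis genes, such as Mki67 and Mcm5, stood higher in wells with Myc, at a ratio of 2.01 (1.77-2.30), Mycn, at 1.39 (1.27-1.52), and Hoxa9, at 1.37 (1.23-1.54). They stood lower in wells with Erg, at 0.73 (0.66-0.81), and Meis1, at 0.88 (0.80-0.97). The median well did not follow for Hoxa9, at 1077 CPM with it and 1405 without, or for Meis1, at 1179 and 1173, so the direction for these genes depends on how wells are weighted.

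The lymphoid-primed genes, among them Flt3 and Dntt, were higher in wells with Hoxa9, at 1056 CPM and a ratio of 1.81 (1.49-2.22). They were lower in wells with Erg, at 0.69 (0.58-0.81), Myc, at 0.73 (0.62-0.85), and Meis1, at 0.84 (0.72-0.98). By the median well the direction turned for Myc, at 558 CPM with it and 453 without, and for Meis1, at 610.2 and 466. The granulocyte-monocyte genes, such as Mpo and Elane, were higher in wells with Myc, at 1.70 (1.33-2.19), and lower in those with Mycn, at 0.81 (0.67-0.99). Nucleolar and polyamine genes known as Myc targets, such as Ncl and Odc1, were higher with Myc, at 1.45 (1.29-1.64), with Mycn, at 1.25 (1.14-1.37), and with Hoxa9, at 1.19 (1.06-1.33), and lower with Erg, at 0.78 (0.70-0.87). For the long-term stem cell and the erythroid and megakaryocyte genes every interval spanned 1.

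Of the 30 comparisons, 8 intervals lay above 1 and 7 below, and of these 15 the median well had the same direction in 11 and the opposite in 4. Wells with Myc were deeper, with a median of 8492 UMIs against 6426 in wells without it, and so were wells with Meis1, at 8718 against 7403. The part of depth and of cell cycle in these contrasts was not tested, and the intervals treat UMIs of one well as independent.

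**Figure D5:**
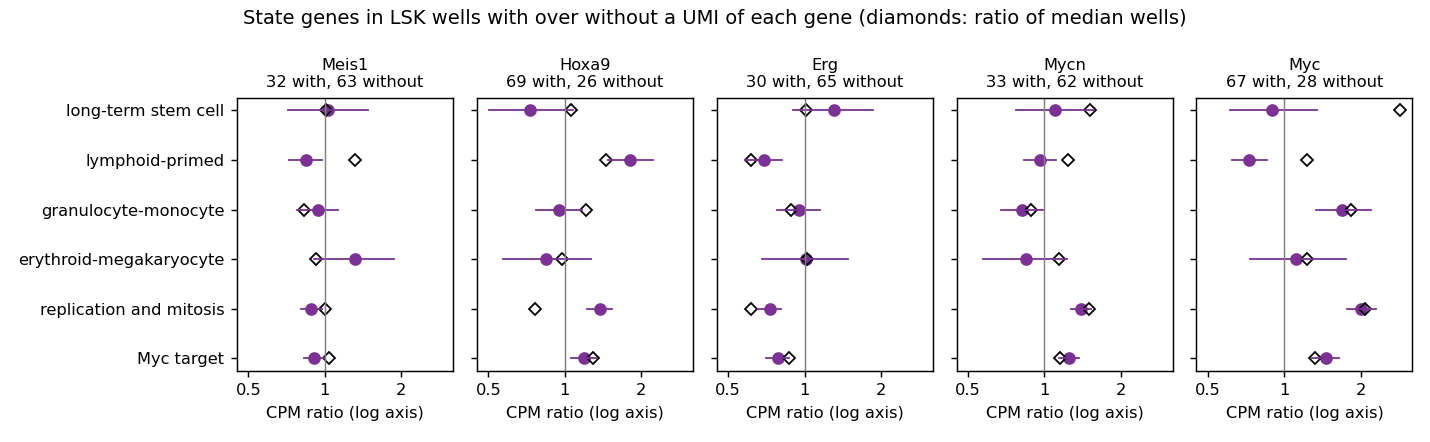
Ratio of CPM (x axis, log scale) of 6 lists of state genes (rows) in LSK wells with over without a UMI of each of 5 genes (panels), with 95% conditional binomial intervals for counting error only (filled circles) and the ratio of the median wells (open diamonds). Replication and mitosis genes lie right of 1 by both measures for Myc and Mycn and left of 1 for Erg, while for Hoxa9 and Meis1 the circle and the diamond lie on opposite sides of 1.

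Myb in B lymphocytes was described further by splits chosen after its values were seen. In the 33 B wells with a UMI of Vpreb3, a gene of the early B lineage, Myb stood at 1072 CPM, and in the other 11 at 210.2, a ratio of 5.10 (2.27-14.2). In the 17 wells with Ms4a1, which encodes the mature B cell antigen CD20, it stood at 440.2 against 1135 CPM, a ratio of 0.39 (0.23-0.63). Wells with Il7r, a receptor for a pre-B cell growth factor, had 1.79 times the level of the rest (1.20-2.74). By Mki67, B220 signal and forward scatter the intervals spanned 1. Both plate rows of B lymphocytes had it, at 991 and 783 CPM.

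The relatives and partners of the 7 genes were taken from lists of 52 genes, of which 43 were in the table and 30 had at least 20 UMIs. Of these, 15 were highest in LSK, of which 7 had an interval above 1 against every other population (Hoxa5, Hoxa7, Mga, Gata2, Lmo2, Nkx2-3 and Sox4) and the other 8 did not. The share of all genes highest in LSK was not counted. Over all genes tested, the median log2 ratio was 0.32, 0.26, 0.95 and 0.98 against B, T, granulocytes and erythroblasts. Those called higher in LSK were 3 of 26 tested against B lymphocytes, 6 of 24 against T cells, 11 of 27 against granulocytes and 15 of 28 against erythroblasts, with 0, 0, 2 and 6 called lower, beside the percentages given above for all genes.

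In the Hoxa cluster, Hoxa7 had 78 UMIs in LSK wells and Hoxa5 had 44, neither had more than 3 in any other population, and both were highest in LSK, like Hoxa9. Among the TALE relatives and partners of Meis1, Pbx4 was highest in LSK at 28.7 CPM, while Pbx2 and Pknox1 were highest in granulocytes at 64.4 and 86.7. Tef, the PAR leucine zipper relative of Hlf, had 37 UMIs in LSK and 0 in erythroblasts. Of the ETS genes related to Erg, Elf1 and Gabpa had their highest level in LSK. Their ratios to B lymphocytes were only 1.05 (0.52-2.41) and 1.14 (0.44-3.72). Spi1, the myeloid factor PU.1, was highest in granulocytes at 714 CPM against 177 in LSK. Fli1 was also highest in granulocytes, at 139 CPM, against 109 in LSK, 110 in B lymphocytes and 99.8 in T cells.

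The Myc network differed by population. Mga, a Max partner known as a repressor, was highest in LSK at 310.2 CPM. Mxd1, a repressor that takes Max from Myc, was highest in granulocytes at 317 CPM against 9.58 in LSK, and Mxd3 in erythroblasts at 201 against 12.0. Mxd4 went the other way, at 188 CPM in LSK against 62.0 in granulocytes and 9.00 in erythroblasts, and was highest in B lymphocytes at 250. Max, Mxi1 and Mlx were highest in granulocytes, at 22.3, 27.3 and 62.0 CPM against 5.99, 5.99 and 24.0 in LSK. Max stood at 22.1 CPM in B lymphocytes and Mxi1 at 24.0 in erythroblasts. Myc itself stood at 14.9 CPM in granulocytes and 7.50 in erythroblasts. Mybl2, the cell cycle relative of Myb, was highest in erythroblasts at 100.5 CPM, where Myb stood at 36.0.

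Among the 12 other stem and progenitor factors, 8 were highest in LSK. Of these, Runx1 and Bmi1 were not resolved from T cells, at ratios of 1.49 (0.97-2.37) and 1.77 (0.84-4.29). Lyl1 was not resolved from erythroblasts, at 1.32 (0.98-1.78), nor Hhex from B lymphocytes, at 1.39 (0.80-2.63). Gata2 had 141 CPM in LSK and at most 19.8 elsewhere, and Nkx2-3 had 47.9 and at most 4.99. Lmo2 stood at 956 CPM in LSK and 517 in erythroblasts. Sox4 was also found in lymphocytes, at 886 CPM in LSK, 685 in B lymphocytes and 434 in T cells. Tal1, Gfi1b and Zfpm1 were highest in erythroblasts and Ldb1 in T cells.

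The genes whose pattern over the 5 populations was most like each member were found by the Euclidean distance of log2(CPM + 10) over 6316 genes with at least 50 UMIs. Meis1 and Erg had fewer and were not compared. The nearest to Hlf were Adgrl4, at 0.60, and Kit, at 0.82, and those to Hoxa9 were 9030619P08Rik, at 0.70, and Gata2, at 0.91. Ctla2b, at 0.34, and AI506816, at 0.49, were nearest to Mycn, and Gm6477, at 0.91, and Gm43984, at 0.98, to Myc. Myb had no near neighbour, its closest being Zfp706, at 1.88, and Sox4, at 2.07.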

How the data were processed

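Single cells of 5 sorted populations were read by CEL-seq2 in 374 wells, and the deposited values are UMI counts per gene and well, made by the authors with scPipe: reads were aligned (Rsubread by default), assigned to exons, split by cell barcode and deduplicated by UMI. For the aligner version, genome build, annotation and strand setting, nothing is stated in the labels, the methods or the table. A further 9 columns of the table matched no sample and were not used, and 74 rows of ERCC spike-in controls were kept out of the totals.

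Wells were grouped by their labels and summed within populations. CPM used mouse-gene UMIs, whose totals ran from 8 to 24033 per well. Intervals are 95% exact Poisson, exact binomial or conditional binomial and cover counting error only, since cells of 1 mouse are not replicates. No test or p-value was computed. Thinned shares are expected values at 2000 UMIs, leaving out shallower wells. The 7 genes and all lists were chosen with earlier results of these data known. All members are named, with the relatives of each list that had at least 20 UMIs and the 2 genes nearest in pattern. Alternatives were scran size factors, TMM, spike-in scaling, another denominator, other sets of wells, filters, folds and floors, and leaving out each plate row. Doublets were not called. The calculations were tested on simulated data. Tools were R 4.3.3, MASS 7.3.60.0.1, scran 1.30.0, edgeR 4.0.16 (TMM only), Python 3.11.15, numpy 2.4.6, pandas 2.3.3, scipy 1.17.1 and matplotlib 3.10.9.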

Additional observations from a re-analysis of the deposited data

How the results depend on the processing

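Of 532 ratios recomputed over 28 settings, 2 changed sign: Myb in LSK over B lymphocytes, and Erg over B lymphocytes without plate row A (-0.05 with the floor). Settings that changed only the minimum UMIs or the fold called left each ratio as it was, so their values could not change sign. The log2 ratio of Myb over B lymphocytes, -0.44 on CPM, was -0.74 with scran size factors and 0.88 with ERCC scaling, and it ran from -0.59 to -0.25 when each plate row was left out. Members called higher in LSK than in B lymphocytes numbered 3 on CPM, beside 2.74% of all genes, 6 with ERCC scaling (32.2%), 6 when a log2 ratio of at least 1, which is 2-fold, was the call (19.3%), 6 with a floor of 1 UMI (11.7%) and 2 with the mean over wells (2.77%). Against T cells they numbered 4 on CPM (3.21%), 7 with ERCC scaling (16.4%), 7 at a log2 ratio of at least 1 (19.4%), 3 with scran size factors (2.49%) and 3 in the wells kept by outlier detection (3.19%). Leaving out each plate row gave 3 to 3 members against B lymphocytes, 3 to 4 against T cells, 6 to 7 against granulocytes and 7 to 7 against erythroblasts. The shares of all genes called then ran from 0.893% to 3.17%, 1.48% to 3.82%, 15.3% to 22.1% and 27.7% to 30.8% in that order. With scran size factors the median log2 ratio of all genes moved from 0.32 to 0.02 against B lymphocytes, from 0.26 to 0.12 against T cells, from 0.95 to 0.12 against granulocytes and from 0.98 to -0.04 against erythroblasts, and with ERCC scaling it was 1.64, 1.16, 1.91 and 1.09. At 50 UMIs as the minimum, Meis1 and Erg were not tested against granulocytes and erythroblasts and 5 members were called in both. Of all genes tested at that minimum, 18.9% and 21.6% were called. Of 392 levels 27 left their counting interval, and of 105 shares of wells with a UMI 34 did. The causes were not tested. No paired analysis was possible because each population was 1 sample from 1 mouse and well numbers pair nothing. Depth limits Meis1, Erg and Mycn most, since 44, 37 and 53 UMIs in LSK wells allow no firm statement on their low levels elsewhere.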
